A study of Homo sapiens with 9 samples.

Results

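The DNA replication and S phase genes examined here are 53 genes whose products license, unwind, copy and seal chromosomal DNA, or prepare a cell to do so. They were picked by gene symbol from a table of 16772 genes, and each of the 53 was found. The choice was made with earlier results of these data known. DU145, a human prostate carcinoma line known for a truncated RB1 protein, was grown for 6 days with 20 µM H93, with 500 nM SAHA (the labels write the unit as nm) or with DMSO alone. H93 is a code name for a compound that the series title describes as aimed at UHRF1, a protein that maintains DNA methylation on newly copied DNA, and SAHA is the histone deacetylase inhibitor vorinostat. Both compounds were dissolved in DMSO, so all 3 groups received the solvent, all were labelled wild type, and the medium was renewed daily. Each group had 3 RNA-seq libraries of the 1 cell line, and the labels do not say whether these were separate cultures, so p-values measure the spread between libraries.

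Before S phase, the origin recognition complex (ORC), CDC6 and CDT1 load the ring-shaped MCM2-7 helicase onto origins, and geminin (GMNN) blocks CDT1 from doing so again. CDC45 and GINS then join MCM2-7 to form the working helicase, polymerases alpha, delta and epsilon copy the strands on the sliding clamp PCNA, and FEN1 and LIG1 finish the lagging strand. Many of these genes are transcribed under E2F factors, which the RB protein restrains until cyclin E and its kinase act, and tumour lines that have lost RB function tend to express them strongly.

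Values were FPKM, a fragment count scaled for transcript length and library size, which allows levels to be compared between genes per length. All 53 genes passed the filter of at least 1 FPKM in at least 3 of the 9 libraries, as did 11525 genes in all. In DMSO cells the median of the 53 mean levels was 27.6 FPKM, against 10.1 FPKM over all kept genes, and 47 of the 53 lay above that value. Together they made up 0.469 to 0.471% of the FPKM in H93 libraries, 0.499 to 0.501% in SAHA libraries and 0.564 to 0.57% in DMSO libraries. The groups do not overlap in this share. In bulk RNA, fewer cells in S phase and less of each RNA per cell cannot be told apart.

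Relative depth ran from 0.875 to 1.0 of the deepest library, each library had 14910 to 15295 genes above 0, and no 2 libraries held identical nonzero values. The epithelial identity of the line was present, with KRT8 at 730 FPKM in H93, 714 in SAHA and 676 in DMSO. PTPRC, the defining leukocyte marker, did not exceed 0.0089 FPKM as a group mean, while CD68, a lysosomal protein listed with it, averaged 28.3 FPKM in H93, 33.4 in SAHA and 22.4 in DMSO cells. CDH1 averaged 4.34 FPKM in H93, 5.09 in SAHA and 13.3 in DMSO cells, and KRT19 averaged 420, 326 and 169 FPKM in the same order. EPCAM averaged 30.4, 37.8 and 67.1 FPKM in that order. With H93, the epithelial genes KRT8 and KRT19 averaged higher than with DMSO. KRT18 (663 against 682 FPKM), KRT7 (301 against 313 FPKM), EPCAM and CDH1 averaged lower, so the epithelial sum below does not describe each gene. Over whole marker lists, the summed level was 2124 to 2167 FPKM in H93, 2044 to 2125 in SAHA and 1897 to 1934 in DMSO libraries for 6 epithelial genes, and 3.92 to 4.64, 3.85 to 6.68 and 2.52 to 3.49 FPKM for 5 fibroblast genes. The 2 leukocyte genes in the table summed to 27.4 to 29.1, 31.5 to 34.9 and 22.1 to 22.8 FPKM and 3 endothelial genes to 0.187 to 0.263, 0.143 to 0.303 and 0.112 to 0.12 FPKM, in the same order of groups. All 4 of these sums were higher in every H93 and SAHA library than in any DMSO library. The 3 prostate luminal genes in the table did not follow this pattern. They summed to 3.58 to 3.77 FPKM in H93, 2.85 to 3.2 in SAHA and 3.38 to 3.64 in DMSO libraries. The part that this shift in marker genes has in the values below was not tested.

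Promoter sequences show how the set divides by a feature that its selection did not use. RefSeq windows (GRCh38.p14) of 300 bases, from 250 bases before a start to 50 bases after it, were matched by gene identifier for 46 of the 53 genes and gave 59 windows. The letters TTTCCCGC, TTTGGCGC or TTTCGCGC, core forms of the E2F motif searched on both strands, were found in 35.6% of those windows (21 of 59), against 4.27% of 13875 windows of kept genes and 2.74% of all 35116 windows. These forms can overlap one another on opposite strands. A CCAAT box (CCAAT, both strands), known from many cell cycle promoters, was found in 59.3% of the windows (35 of 59), against 34.7% for kept genes and 34.6% for all. The CHR letters TTTGAA, known from late cell cycle genes, were found in 3.39% of the windows (2 of 59), against 10% for kept genes and 15.2% for all. MCM4, MCM5, GINS4, POLD3, RPA2, RPA3 and CCNE2 were not matched. A match describes letters in the window and is not a measured site.

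The 250 bases before the start are shown for 4 genes that cross the E2F letters with the response to H93. MCM6 (chr2:135876444-135876693, minus strand) and CHAF1A (chr19:4402390-4402639, plus strand) fell with H93, and E2F1 (chr20:33686386-33686635, minus strand) and RRM1 (chr11:4094435-4094684, plus strand) did not pass the test. Each is written 5′ to 3′ on the strand of its gene from RefSeq, and capitals mark the E2F letters, which stand in 2 stretches of MCM6, in 1 of E2F1 and in neither CHAF1A nor RRM1.
MCM6: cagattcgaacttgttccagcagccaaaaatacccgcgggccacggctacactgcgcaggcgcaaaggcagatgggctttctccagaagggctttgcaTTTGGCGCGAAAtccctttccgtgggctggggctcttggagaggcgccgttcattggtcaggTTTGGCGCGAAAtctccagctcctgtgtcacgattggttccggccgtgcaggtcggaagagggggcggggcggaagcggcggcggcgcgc
E2F1: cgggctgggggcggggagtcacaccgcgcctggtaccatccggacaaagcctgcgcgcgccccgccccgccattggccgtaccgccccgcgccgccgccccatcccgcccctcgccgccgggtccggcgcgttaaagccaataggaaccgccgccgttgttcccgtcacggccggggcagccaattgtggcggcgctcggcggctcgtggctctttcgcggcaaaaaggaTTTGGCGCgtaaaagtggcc
CHAF1A: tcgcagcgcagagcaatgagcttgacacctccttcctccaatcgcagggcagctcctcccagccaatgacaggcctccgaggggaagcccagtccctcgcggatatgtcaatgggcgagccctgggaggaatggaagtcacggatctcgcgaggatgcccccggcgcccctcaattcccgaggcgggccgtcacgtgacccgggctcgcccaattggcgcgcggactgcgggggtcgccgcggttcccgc
RRM1: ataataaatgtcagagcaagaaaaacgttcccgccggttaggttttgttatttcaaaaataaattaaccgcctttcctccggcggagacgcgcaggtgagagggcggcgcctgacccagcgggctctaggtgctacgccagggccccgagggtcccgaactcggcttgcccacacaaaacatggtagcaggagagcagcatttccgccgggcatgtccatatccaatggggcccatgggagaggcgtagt
Among the 21 matched genes with the E2F letters, 14 fell with H93, 0 rose and 7 did not pass the test, with a median log2 difference of -0.23. Among the 25 without them, 16 fell, 2 rose and 7 did not pass, with a median of -0.19. Genes that fell and genes that did not pass thus stood on both sides of this division. Only the exact letters were searched, and genes without them may hold near forms. Control by E2F factors was not tested. Of all kept genes, 35.0% fell and 34.9% rose with H93.

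H93 was compared with DMSO to ask how the compound changed expression. Most of the set was lower: 33 of the 53 genes (62.3%) were lower in H93 than in DMSO cells, where 35.0% of all 11525 kept genes were lower. Only 2 of the 53, RFC1 and PRIM2, were higher, where 34.9% of all kept genes were higher. The remaining 18 did not pass the test. A call is an adjusted p under 0.05 from limma on log2(FPKM + 1), with Benjamini-Hochberg adjustment over all kept genes. The median log2 difference was -0.19 over the 53 genes and 0.0 over all kept genes, so most falls were small. TIMELESS alone of the 53 passed 2-fold as well, a share near that of all kept genes (263 of 11525 in either direction). The members are not replicates of each other, and no test was made over the set. The 53 genes were chosen with earlier results of these data known, so their shares are descriptive. With 3 libraries against 3, an exact permutation test of a single gene cannot go under p = 0.1.

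**Figure D1:**
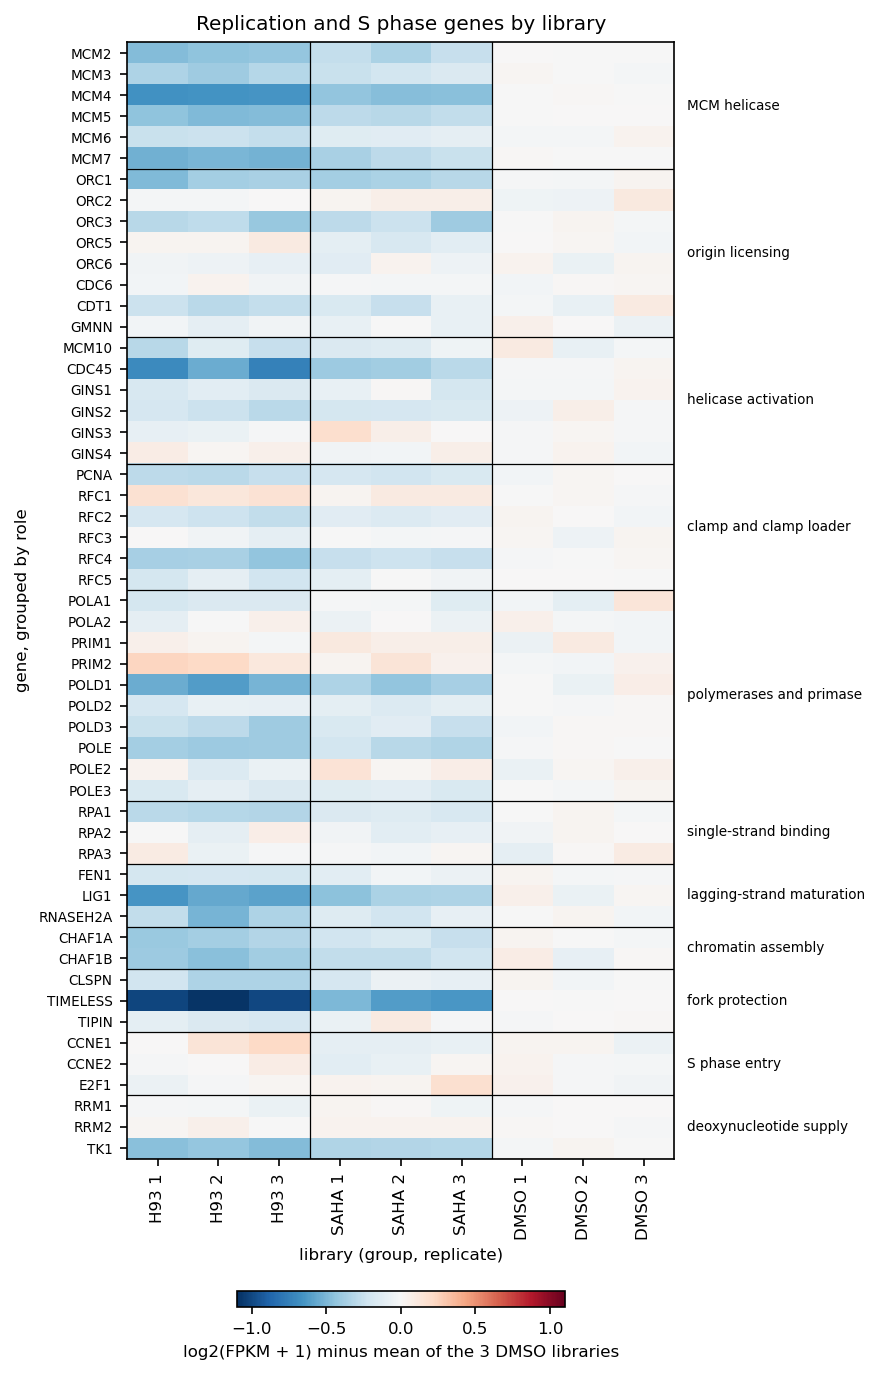
Each row is 1 of the 53 genes, grouped by role, and each column 1 of the 9 libraries. The colour gives log2(FPKM + 1) minus the mean of the 3 DMSO libraries. The MCM rows, CDC45, LIG1, POLD1, TK1 and TIMELESS are blue in every H93 library and paler blue in every SAHA library, and the S phase entry rows are near white or faintly tinted in both directions.

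The MCM2-7 helicase, the motor of the replication fork, fell as a whole, with all 6 subunits lower after H93 and log2 differences from -0.65 to -0.25. Of all kept genes, 35.0% were lower with H93. MCM4 was at 68.1, 68.4 and 68.8 FPKM in the H93 libraries, 79.9, 77.9 and 78.6 FPKM in the SAHA libraries and 108, 109 and 108 FPKM in the DMSO libraries. The 3 groups do not overlap, and the H93 mean was 63.3% of the DMSO mean (log2 difference -0.65, SE 0.0214, adjusted p = 1.15e-10, limma). MCM7 had 71.3, 72.8 and 71.8 FPKM with H93, 80.4, 84.7 and 87.3 FPKM with SAHA and 104, 103 and 103 FPKM with DMSO. MCM5 had 42.3, 41.1 and 41.3 FPKM with H93, 47.1, 46.6 and 47.7 FPKM with SAHA and 57.7, 57.9 and 57.8 FPKM with DMSO. Both show the same order of groups, and the H93 minus DMSO difference was -0.52 for MCM7 (adjusted p = 7.98e-09) and -0.47 for MCM5 (adjusted p = 3.85e-09).

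MCM2 stood at 46.2, 47.3 and 47.9 FPKM in H93 libraries, 53.9, 50.6 and 54 FPKM in SAHA libraries and 64.8, 64.6 and 64.6 FPKM in DMSO libraries. MCM3 stood at 76.5, 73.9 and 78.1 FPKM with H93, 81.8, 84.2 and 86.6 FPKM with SAHA and 98.4, 97 and 95.9 FPKM with DMSO. For both genes H93 was lowest, SAHA between and DMSO highest, library by library, with H93 minus DMSO differences of -0.45 and -0.35. MCM6, whose promoter is printed above, changed least of the 6 subunits. It had 37.9, 38.1 and 37.6 FPKM with H93, 41.2, 41.4 and 42.2 FPKM with SAHA and 44.5, 44.6 and 46.5 FPKM with DMSO (H93 minus DMSO -0.25, SE 0.0256, adjusted p = 2.47e-06). The ratio of MCM4 to MCM6 was 1.81 ± 0.0192 in H93, 1.89 ± 0.0388 in SAHA and 2.39 ± 0.0721 in DMSO cells (SD, n = 3), so the subunits of this ring did not move by equal amounts. MCM6 lies on the minus strand of chromosome 2 from 135839626 to 135876426 (GRCh38, GENCODE release 29).

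Of 8 origin licensing genes, 3 fell with H93 (ORC1, ORC3 and CDT1), 0 rose and 5 did not pass, with a median difference of -0.06. The 37.5% that fell is near the 35.0% of all kept genes that were lower. ORC1, the ORC subunit known to vary over the cell cycle, was at 10.1, 11 and 11.1 FPKM in H93 libraries, 11, 11.2 and 11.6 FPKM in SAHA libraries and 14.4, 14.3 and 14.9 FPKM in DMSO libraries. Both treated groups lay below every DMSO library and overlapped each other, and the H93 minus DMSO difference was -0.41 (SE 0.0411, adjusted p = 2.12e-06). CDC6, the ATPase that loads MCM2-7 with ORC, was at 36.1, 37.9 and 36 FPKM with H93, 36.6, 36.5 and 36.5 FPKM with SAHA and 36.1, 37.3 and 37.5 FPKM with DMSO. All groups overlap for CDC6, and its H93 minus DMSO difference was -0.01 with a 95% interval of -0.07 to 0.05. CDT1 averaged 21.2 ± 0.428 FPKM in H93, 22.8 ± 1.45 FPKM in SAHA and 25.7 ± 1.68 FPKM in DMSO cells (SD, n = 3), while its inhibitor GMNN averaged 14.1 ± 0.384, 14.2 ± 0.478 and 14.7 ± 0.622 FPKM in the same order and did not pass the test against DMSO for either compound. The CDT1 to GMNN ratio was 1.5 in H93, 1.61 in SAHA and 1.75 in DMSO cells.

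Of 6 helicase activation genes, 4 fell with H93 (66.7%), 0 rose and 2 did not pass, where 35.0% of all kept genes were lower. CDC45, which joins MCM2-7 and GINS in the active helicase, had 17.9, 20 and 17.3 FPKM in H93 libraries, 22.2, 22.5 and 23.9 FPKM in SAHA libraries and 29.3, 29.4 and 30.2 FPKM in DMSO libraries. No group overlaps another, and H93 cells held 62.1% of the DMSO mean (log2 difference -0.66, SE 0.0472, adjusted p = 8.93e-08). GINS4, a subunit of the 4-part GINS complex, had 14.4, 13.8 and 14.1 FPKM with H93, 13.2, 13.3 and 14.2 FPKM with SAHA and 13.4, 14 and 13.3 FPKM with DMSO, with overlapping groups and a difference of 0.05 (95% interval -0.03 to 0.13). GINS1, GINS2 and the initiation factor MCM10 fell with H93, by 0.15, 0.23 and 0.23 on the log2 scale, and GINS3 did not pass. The GINS1 call is lost without DMSO replicate 3. CDC45 lies on the plus strand of chromosome 22 from 19479459 to 19520612.

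The sliding clamp fell and its loader split. PCNA, the ring that holds polymerases on DNA, averaged 77 ± 1.11 FPKM in H93, 82.2 ± 1.28 FPKM in SAHA and 93.7 ± 1.67 FPKM in DMSO cells (SD, n = 3; H93 minus DMSO -0.28, adjusted p = 4.41e-07). Of the 5 loader subunits, RFC2, RFC4 and RFC5 fell with H93, RFC3 did not pass and RFC1 rose. Of all kept genes, 35.0% fell and 34.9% rose with H93. RFC4 was at 44, 44.2 and 41.7 FPKM with H93, 47.5, 48.5 and 47.6 FPKM with SAHA and 56.2, 56.6 and 57.7 FPKM with DMSO, a difference of -0.38 between H93 and DMSO. RFC1, the large subunit that is particular to the PCNA loader, went the other way, with 27.6, 26.8 and 27.5 FPKM in H93 libraries, 25, 26.3 and 26.3 FPKM in SAHA libraries and 24.4, 24.8 and 24.2 FPKM in DMSO libraries. Every H93 library exceeded every SAHA and DMSO library, and the H93 minus DMSO difference was 0.15 (SE 0.0291, adjusted p = 0.000468, limma). The H93 minus SAHA difference of 0.08 did not pass the test (adjusted p = 0.0641, limma). It passed with a fixed FPKM sum (adjusted p = 0.0309). RFC3, a small subunit, stayed within 5.78 and 6.43 FPKM over all 9 libraries, with 6.28, 6.08 and 5.78 FPKM in H93, 6.23, 6.17 and 6.19 FPKM in SAHA and 6.39, 5.99 and 6.43 FPKM in DMSO libraries.

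Among 10 polymerase and primase genes, 6 fell with H93 (60%), 1 rose (10%) and 3 did not pass. Of all kept genes, 35.0% were lower and 34.9% higher. POLD1, the catalytic subunit of polymerase delta, had 18.5, 17.6 and 18.9 FPKM with H93, 21.5, 20 and 21.1 FPKM with SAHA and 27.4, 26 and 29 FPKM with DMSO. The groups are fully separated, and H93 cells were at 66.9% of the DMSO mean (log2 difference -0.56, SE 0.0434, adjusted p = 2.07e-07). Its partner POLD2 changed less, with means of 64.5, 64.2 and 70 FPKM in H93, SAHA and DMSO cells, and the POLD1 to POLD2 ratio was 0.285, 0.325 and 0.392 in that order. POLE, the catalytic subunit of polymerase epsilon, averaged 14.3 ± 0.151 FPKM in H93, 15.5 ± 0.764 FPKM in SAHA and 19 ± 0.161 FPKM in DMSO cells (SD, n = 3; H93 minus DMSO -0.38, adjusted p = 9.88e-07).

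On the primase side of polymerase alpha, 1 gene rose. PRIM2, the large primase subunit, was at 8.54, 8.45 and 7.78 FPKM in H93 libraries, 7.27, 7.94 and 7.38 FPKM in SAHA libraries and 7, 6.96 and 7.41 FPKM in DMSO libraries. All H93 libraries lay above all DMSO libraries and overlapped SAHA, with a rise of 0.19 against DMSO (SE 0.0474, adjusted p = 0.00343). POLA2, the regulatory subunit, was at 13.2, 14.2 and 14.8 FPKM with H93, 13.6, 14.3 and 13.6 FPKM with SAHA and 14.8, 14 and 13.9 FPKM with DMSO, with a difference of -0.02 (95% interval -0.11 to 0.08). POLA1, the catalytic subunit and the lowest of the 53 genes at 3.87 FPKM in H93, 4.28 in SAHA and 4.5 in DMSO cells, fell by 0.17 with H93 (adjusted p = 0.0249). That call is lost without DMSO replicate 3, without H93 replicate 1 or with no filter on low values. PRIM2 lies on the plus strand of chromosome 6 from 57314805 to 57646849, and RFC1 on the minus strand of chromosome 4 from 39287456 to 39366375.

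**Figure D2:**
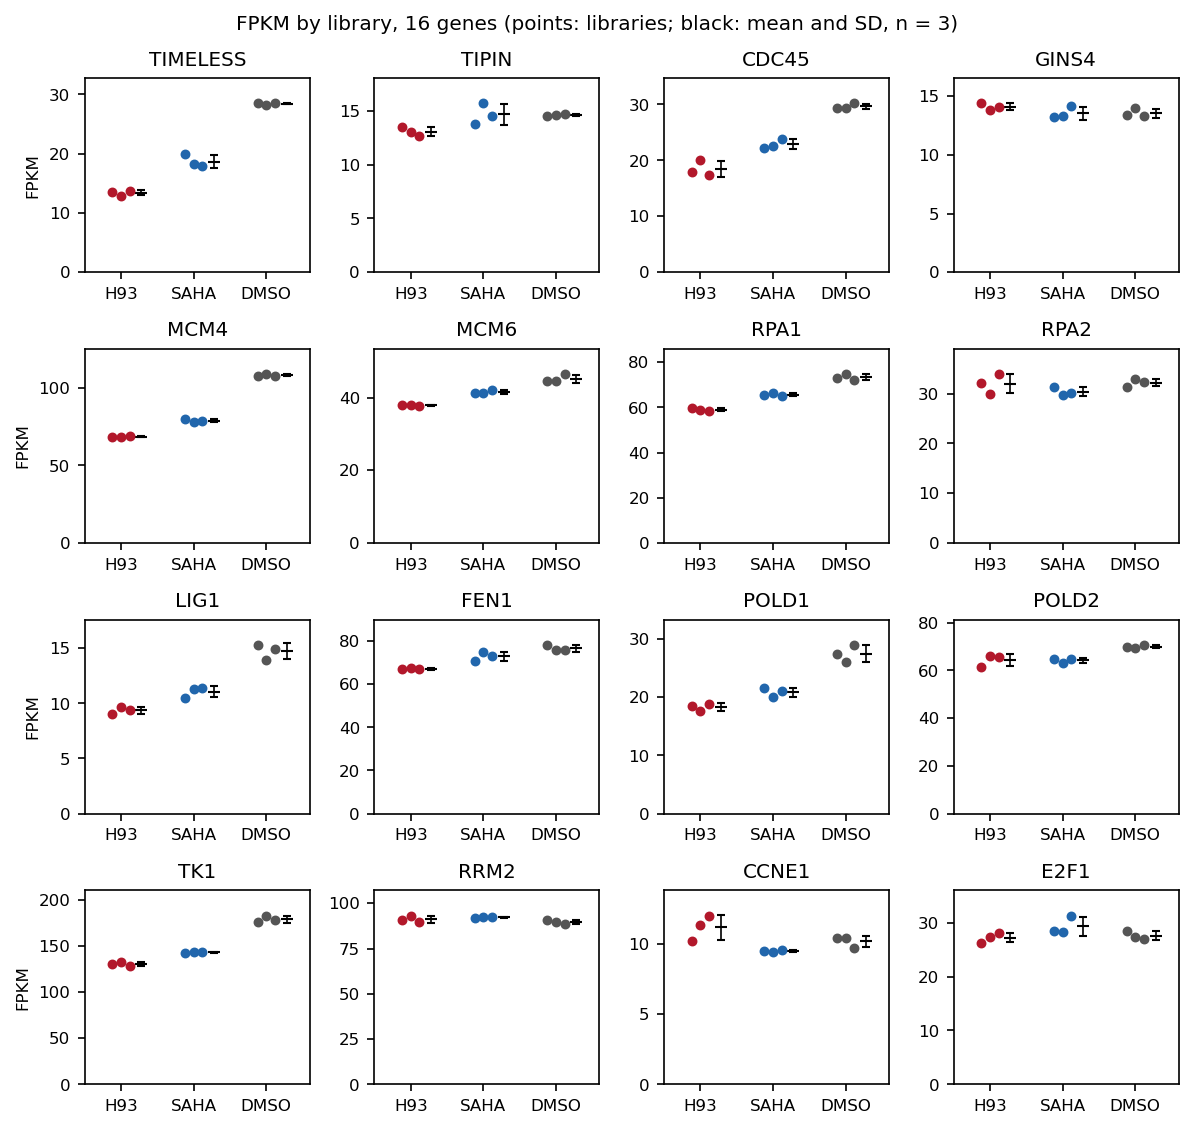
Each panel plots the FPKM of 1 gene (axis from 0) in every H93, SAHA and DMSO library, with the mean and SD in black (n = 3). TIMELESS, CDC45, MCM4, LIG1, POLD1 and TK1 are lowest in H93 and highest in DMSO without overlap, while GINS4, RPA2, RRM2 and E2F1 overlap between H93 and DMSO.

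The trimer RPA, which coats single-stranded DNA, fell with H93 in 1 of its 3 subunits (33.3%), near the 35.0% of all kept genes that were lower. RPA1 was at 59.6, 58.7 and 58.5 FPKM in H93 libraries, 65.6, 66.3 and 64.8 FPKM in SAHA libraries and 73, 74.7 and 72.2 FPKM in DMSO libraries (H93 minus DMSO -0.31, SE 0.023, adjusted p = 1.28e-07). RPA3 was at 24.2, 21.5 and 22.5 FPKM with H93, 22.5, 22.3 and 23.1 FPKM with SAHA and 21.1, 22.9 and 24.3 FPKM with DMSO. RPA1 thus separated the groups and RPA3 did not, with a 95% interval of -0.11 to 0.11 for its H93 minus DMSO difference. The RPA1 to RPA2 ratio was 1.84 ± 0.114 in H93, 2.16 ± 0.0724 in SAHA and 2.28 ± 0.0455 in DMSO cells (SD, n = 3).

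All 3 genes of lagging-strand maturation fell with H93, with a median of -0.37, where 35.0% of all kept genes were lower. LIG1, the ligase that seals Okazaki fragments, had 9.01, 9.63 and 9.41 FPKM in H93 libraries, 10.5, 11.3 and 11.4 FPKM in SAHA libraries and 15.3, 13.9 and 14.9 FPKM in DMSO libraries, which puts H93 cells at 63.6% of the DMSO mean (log2 difference -0.6, SE 0.045, adjusted p = 1.4e-07). FEN1, the flap nuclease, is expressed far higher and moved less, at 66.8, 67.3 and 66.8 FPKM with H93, 70.7, 74.7 and 73.1 FPKM with SAHA and 78.2, 75.6 and 75.8 FPKM with DMSO (H93 minus DMSO -0.19, adjusted p = 2.84e-05). The catalytic RNase H2 subunit RNASEH2A, which removes ribonucleotides, fell by 0.37. CHAF1A and CHAF1B, the large subunits of CAF-1, the chaperone that puts histones on new DNA, fell as well. CHAF1B stood at 9.38, 8.99 and 9.51 FPKM with H93, 10.4, 10.4 and 10.8 FPKM with SAHA and 13.5, 11.9 and 12.8 FPKM with DMSO, and CHAF1A at 20.6, 21.2 and 22 FPKM with H93, 23.8, 24.5 and 23.1 FPKM with SAHA and 28.3, 27.6 and 27.2 FPKM with DMSO. The pair moved nearly in step, by -0.41 and -0.37, and their ratio (CHAF1A over CHAF1B) was 2.29 in H93, 2.26 in SAHA and 2.18 in DMSO cells. LIG1 lies on the minus strand of chromosome 19 from 48115445 to 48170603, and POLD1 on its plus strand from 50384204 to 50418016.

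TIMELESS showed the largest change of the 53 genes in each comparison. TIMELESS and TIPIN form a dimer that travels with the fork and, with claspin (CLSPN), stabilises it and passes the stress signal to the checkpoint kinase. TIMELESS was at 13.6, 12.9 and 13.7 FPKM in H93 libraries, 19.9, 18.2 and 17.9 FPKM in SAHA libraries and 28.5, 28.3 and 28.5 FPKM in DMSO libraries. H93 cells held 47.2% of the DMSO mean (log2 difference -1.03, SE 0.0403, 95% interval -1.12 to -0.94, adjusted p = 4.72e-10), and all groups are well apart. TIPIN was at 13.5, 13 and 12.7 FPKM with H93, 13.8, 15.7 and 14.5 FPKM with SAHA and 14.5, 14.6 and 14.7 FPKM with DMSO. TIPIN fell with H93 by 0.15 (adjusted p = 0.00845) and did not pass the test with SAHA. The ratio of TIMELESS to TIPIN was 1.03 ± 0.0504 in H93, 1.28 ± 0.148 in SAHA and 1.95 ± 0.0205 in DMSO cells (SD, n = 3), so RNA for the 2 partners of this dimer was near equal per length with H93 and uneven with DMSO. CLSPN averaged 7.3 ± 0.442, 8.43 ± 0.41 and 9.17 ± 0.206 FPKM in H93, SAHA and DMSO cells and fell with H93 by 0.29. TIMELESS lies on the minus strand of chromosome 12 from 56416373 to 56449403. With a pseudocount of 5 its difference is -0.861, under 2-fold.

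None of the 3 genes of S phase entry passed the test between H93 and DMSO. Of all 11525 kept genes, 3475 did not pass it. E2F1, the activator whose own promoter is printed above, was at 26.3, 27.3 and 28 FPKM in H93 libraries, 28.4, 28.2 and 31.3 FPKM in SAHA libraries and 28.5, 27.4 and 26.9 FPKM in DMSO libraries, with a H93 minus DMSO difference of -0.02 (95% interval -0.11 to 0.07). CCNE2, a cyclin E gene, was at 6.51, 6.63 and 7.06 FPKM with H93, 6, 6.2 and 6.72 FPKM with SAHA and 6.8, 6.53 and 6.47 FPKM with DMSO, with a difference of 0.02 (95% interval -0.08 to 0.13). Groups overlap for both. CCNE1, the other cyclin E gene, was at 10.2, 11.3 and 12 FPKM in H93 libraries, 9.45, 9.4 and 9.56 FPKM in SAHA libraries and 10.4, 10.4 and 9.7 FPKM in DMSO libraries. Its H93 minus DMSO difference of 0.12 missed the threshold (adjusted p = 0.0542) and passed it without H93 replicate 1 (adjusted p = 0.00415). It also passed with quantile normalization (0.0449), a fixed FPKM sum (0.0486) and a mean FPKM of at least 5 (0.049).

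Deoxynucleotide supply was uneven, with 1 of 3 genes lower with H93 (33.3%), near the 35.0% of all kept genes that were lower. TK1, the thymidine kinase of the salvage pathway and the highest of the 53 genes, was at 130, 133 and 128 FPKM in H93 libraries, 142, 143 and 144 FPKM in SAHA libraries and 176, 183 and 178 FPKM in DMSO libraries, at 72.7% of the DMSO mean with H93 (log2 difference -0.46, SE 0.0222, adjusted p = 2.95e-09). RRM2, the regulated subunit of ribonucleotide reductase, was at 91, 93.2 and 89.4 FPKM with H93, 91.9, 92.4 and 92.2 FPKM with SAHA and 90.7, 89.7 and 88.7 FPKM with DMSO. Its large partner RRM1 was at 45.3, 45 and 43.2 FPKM with H93, 46.5, 46 and 44.1 FPKM with SAHA and 45.2, 45.8 and 45.9 FPKM with DMSO. TK1 fell and neither reductase gene passed the test, with 95% intervals of -0.03 to 0.07 for RRM2 and -0.1 to 0.03 for RRM1. The TK1 to RRM2 ratio was 1.43 ± 0.00473 in H93, 1.55 ± 0.00746 in SAHA and 2 ± 0.0472 in DMSO cells (SD, n = 3). TK1 lies on the minus strand of chromosome 17 from 78174075 to 78187233. The subunit ratios given here are for gene pairs chosen after their values were seen, as a description without a test.

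**Figure D3:**
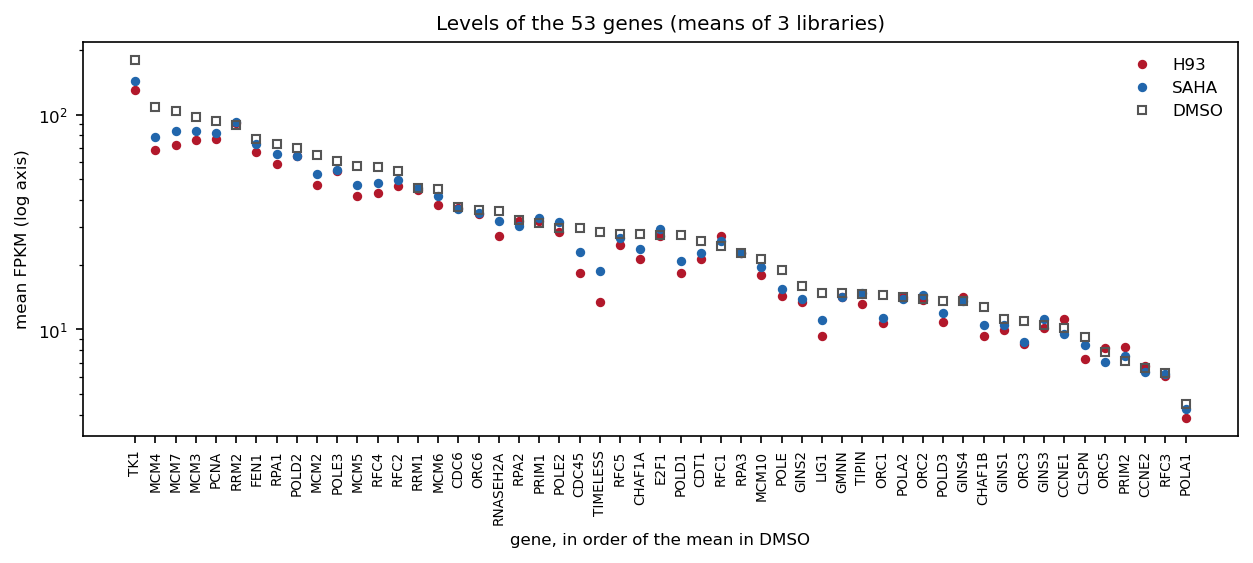
Mean FPKM of each gene (log axis, means of 3 libraries) in H93, SAHA and DMSO cells, in the order of the DMSO means from TK1 at 179 to POLA1 at 4.5. TIMELESS, CDC45, MCM4, LIG1 and POLD1 show the widest gaps between H93 and DMSO, and RRM2, CDC6, RPA3 and E2F1 show almost none.

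SAHA was the second treatment set against DMSO, and it shares its DMSO libraries with the comparison above. Here 28 of the 53 genes (52.8%) were lower in SAHA than in DMSO cells, where 31.4% of all kept genes were lower. RFC1 alone was higher, where 27.4% of all kept genes were higher, and 24 genes did not pass. The median difference was -0.12 over the 53 genes and -0.01 over all kept genes. TIMELESS again led with 65.8% of its DMSO mean (log2 difference -0.58, SE 0.0403, adjusted p = 1.42e-07), followed by MCM4 at 72.9% (-0.45, adjusted p = 5.1e-09). LIG1 and POLD1 each differed by -0.38, CDC45 by -0.36, ORC1 by -0.34 and TK1 by -0.32. The RFC1 rise of 0.08 (adjusted p = 0.0389) is lost with every library rescaled to 1 FPKM sum and in a fit of the 6 libraries alone. It is also lost without SAHA replicate 2 or 3 or any 1 of the DMSO libraries (adjusted p from 0.0542 to 0.115).

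By role, the SAHA falls covered all 6 MCM genes (median -0.29), 4 of 8 licensing genes, 2 of 6 helicase activation genes, 3 of 6 clamp and loader genes and 5 of 10 polymerase and primase genes. They also covered all 3 maturation genes (median -0.15), CHAF1A and CHAF1B (median -0.23), and none of CCNE1, CCNE2 and E2F1. RPA1, TIMELESS and TK1 were each 1 gene of the 3 in their role that fell. The share of 33.3% in these 3 roles and in helicase activation is near the 31.4% of all kept genes that were lower with SAHA. ORC5, a core ORC subunit, was the 1 gene lower with SAHA that did not pass with H93. It was at 8.08, 8.05 and 8.52 FPKM in H93 libraries, 7.22, 6.84 and 7.17 FPKM in SAHA libraries and 7.91, 8.03 and 7.7 FPKM in DMSO libraries, so that SAHA lay below both other groups. Its SAHA minus DMSO difference was -0.14 (SE 0.0396, adjusted p = 0.00954), against 0.05 (adjusted p = 0.249) for H93 minus DMSO. E2F1 had a SAHA minus DMSO difference of 0.08 (95% interval -0.01 to 0.17, adjusted p = 0.103). Under leave-one-out and other settings FEN1, RNASEH2A and CDT1 also lost their SAHA calls at least once.

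H93 and SAHA were then set against each other, at doses of 20 µM and 500 nM that differ, so the contrast is of these treatments as given. H93 cells had the lower levels: 25 of the 53 genes (47.2%) were lower in H93 than in SAHA cells, where 13.9% of all kept genes were lower. A further 2, ORC5 and CCNE1, were higher with H93, where 17.6% of all kept genes were higher, and 26 did not pass. The median difference was -0.1 over the 53 genes and 0.02 over all kept genes. A total of 20 genes were lower in all 3 comparisons, among them MCM2 to MCM7, CDC45, PCNA, POLD1, RPA1, LIG1, FEN1, TIMELESS and TK1. The 3 comparisons share libraries, so their calls are not independent. The share of all kept genes that were lower in all 3 was not counted.

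TIMELESS had the largest H93 minus SAHA difference, -0.45 (SE 0.0403, adjusted p = 2.81e-05), with 71.7% of the SAHA mean in H93 cells. CDC45 differed by -0.3 (SE 0.0472, adjusted p = 0.00074), LIG1 and RNASEH2A by -0.22 each, MCM7 by -0.22 (adjusted p = 0.000212) and MCM4 by -0.2 (adjusted p = 7.88e-05). In this comparison 13.9% of all kept genes were lower. All 6 MCM genes, all 3 maturation genes, CHAF1A, CHAF1B and all 3 fork protection genes were lower with H93 than with SAHA. TIPIN was one of these: it differed by -0.15 (adjusted p = 0.0184), and this call is lost without H93 replicate 3 or SAHA replicate 2. GINS3 and POLE2 were lower with H93 than with SAHA (-0.14 each) although neither compound passed against DMSO. Both calls are lost with no filter on low values, with a fixed FPKM sum and when some libraries are left out. RFC2, RFC5, POLE and CHAF1B also lost their calls under at least 1 library left out. The RFC5 and POLE calls are lost with no filter and with a fixed FPKM sum as well. In a fit of the 6 compared libraries alone, the GINS3, RFC5 and POLE calls are lost. In all, 20 of the 27 calls held in every alternative.

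In the other direction, ORC5 was 0.19 higher with H93 than with SAHA (SE 0.0396, 95% interval 0.11 to 0.28, adjusted p = 0.00381). CCNE1 was 0.22 higher (SE 0.0521, 95% interval 0.1 to 0.33, adjusted p = 0.00881), and all its H93 libraries lay above all SAHA libraries. Licensing genes otherwise gave no difference between the compounds that passed the test: ORC1 differed by -0.07 (95% interval -0.16 to 0.02), ORC3 by -0.03 (-0.13 to 0.08), CDC6 by 0.01 (-0.06 to 0.07) and CDT1 by -0.1 (-0.21 to 0.01). The interval for RRM2 was -0.06 to 0.03 and that for E2F1 -0.19 to -0.01 (adjusted p = 0.0789). A p that misses the threshold does not show that the compounds act alike on these genes.

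**Figure D4:**
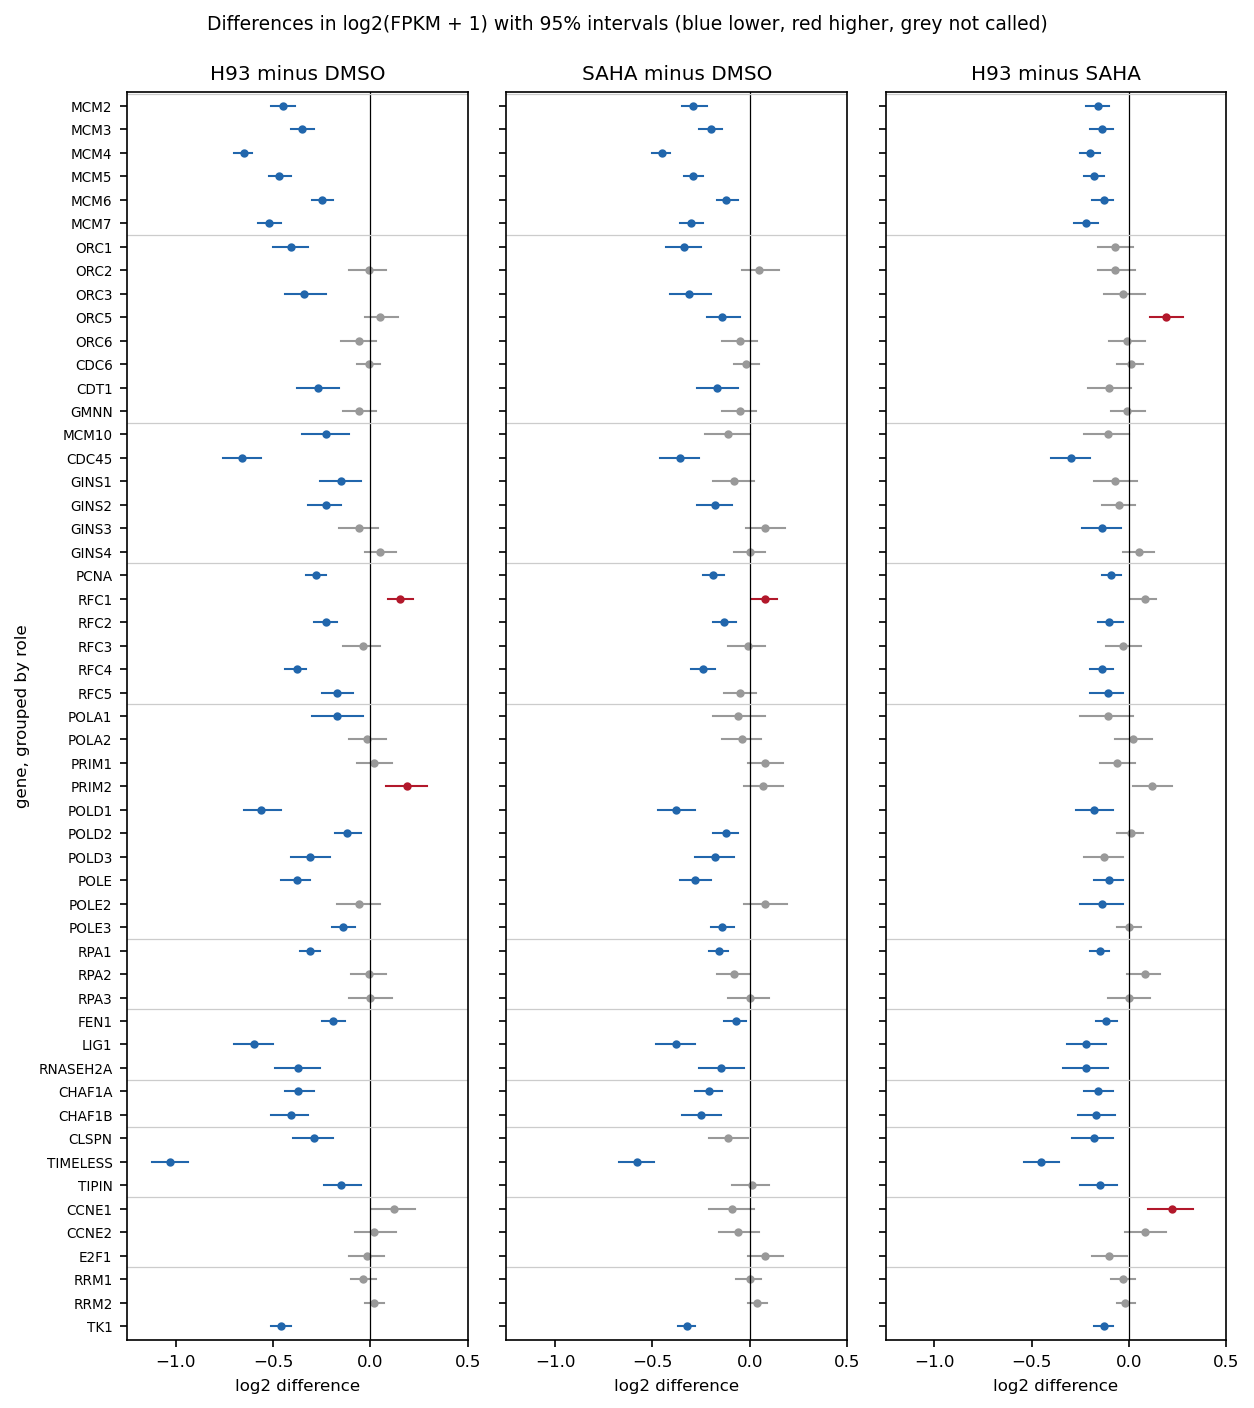
Log2 differences with 95% intervals for the 53 genes, grouped by role, in the 3 comparisons (blue lower, red higher, grey not passing the test). TIMELESS lies farthest from 0 in each panel, at -1.03, -0.58 and -0.45, and RFC1, PRIM2, ORC5 and CCNE1 hold the calls to the right of 0.

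Genes that work beside the 53 were counted in 5 lists, also chosen with earlier results of these data known. These lists are to be read against all kept genes. Of all kept genes, 35.0% fell and 34.9% rose with H93, and 31.4% fell and 27.4% rose with SAHA. Of 24 tested origin firing and fork partners, 17 fell (70.8%) and 2 rose (8.33%) with H93 (median -0.17), and 12 fell (50%) and 1 rose (4.17%) with SAHA (median -0.12). RECQL4, a helicase needed to start replication, averaged 9.32 FPKM in H93, 9.77 in SAHA and 13.9 in DMSO cells (H93 minus DMSO -0.53), and DNA2, a nuclease of long flaps, averaged 5.35, 6.5 and 7.76 FPKM in that order (-0.47). CHTF18, of an alternative clamp loader, averaged 7.12, 8.32 and 10.1 FPKM (-0.45).

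Of 13 nucleotide synthesis genes, 8 fell (61.5%) and 2 rose (15.4%) with H93 (median -0.27), and 8 fell (61.5%) and 1 rose (7.69%) with SAHA. TYMS, the thymidylate synthase, averaged 130 FPKM in H93, 155 in SAHA and 190 in DMSO cells (-0.55). SAMHD1, which breaks down deoxynucleotides, rose, with 13.1, 10.8 and 8.21 FPKM in H93, SAHA and DMSO cells (0.61). Of 14 genes for chromatin and repair at the fork, 12 fell (85.7%) and 2 rose (14.3%) with H93 (median -0.26), and 10 fell (71.4%) and 0 rose with SAHA. UNG, which removes uracil from DNA, averaged 32.1, 39.4 and 54.4 FPKM (-0.74), CDCA7 20.4, 23.8 and 28.4 FPKM (-0.46) and the histone chaperone ASF1A 17.9, 14.8 and 13.6 FPKM (0.38), each in H93, SAHA and DMSO cells.

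Of 27 genes of G1/S control, 13 fell (48.1%) and 7 rose (25.9%) with H93 (median -0.08), and 12 fell (44.4%) and 4 rose (14.8%) with SAHA. CDKN1A, which encodes the kinase inhibitor p21, averaged 80.6 FPKM in H93, 63.4 in SAHA and 20.8 in DMSO cells (H93 minus DMSO 1.91, adjusted p = 1.39e-12). MYBL2, an E2F-driven transcription factor, averaged 72.9, 89.7 and 118 FPKM (-0.69), and cyclin D1 (CCND1) averaged 163, 157 and 116 FPKM (0.49). Of 24 mitotic genes, 17 fell (70.8%) and 1 rose (4.17%) with H93 (median -0.14), and 11 fell (45.8%) and 4 rose (16.7%) with SAHA (median -0.07). KIF20A averaged 46.9, 54.5 and 64.6 FPKM (-0.46), CCNB1 75.1, 86.8 and 102 FPKM (-0.44) and CENPF 22.8, 25.7 and 31.1 FPKM (-0.43), each in H93, SAHA and DMSO cells. Against SAHA, H93 was lower in 15 (62.5%) and higher in 0 of the mitotic genes, where 13.9% of all kept genes were lower and 17.6% higher. It was lower in 6 (22.2%) and higher in 5 (18.5%) of the G1/S genes, and its higher share is near that of all kept genes. Nucleotide synthesis genes were lower in 61.5% and higher in 15.4% with H93 than with SAHA. The shares were 25% and 12.5% for origin firing and fork partners, and 28.6% and 14.3% for the chromatin and repair list.

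Some levels are uncertain because other annotated genes share their exons or sequence. In 8 of the 53 genes more than 10% of the exon bases are overlapped by exons of another gene in GENCODE release 29, among them MCM2 (32% on the opposite strand), CCNE2 (47.6% opposite), GINS4 (23.6% opposite), POLA2 (53.7% on the same strand), RRM2 (27.9% same), PRIM1 (26% same) and POLD1 (12.1% same). The kit marks strand, but the use of strand in counting is not given in the sources used here. PCNA, RFC3, RFC5, POLD2, RPA2, FEN1 and RRM2 have pseudogenes named after them, which could take or lend reads.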

How the data were processed

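Per the labels' protocols, TRIzol was used to extract RNA from DU145 cells and a strand-marking TruSeq mRNA kit to build libraries. The authors deposited 1 table of FPKM per gene for 9 libraries, 3 per group. Tools named in the submitters' processing notes are Cufflinks, HISAT2 and Trimmomatic 0.36, and the build named there is GRCh38.p13. How genes were annotated and counted, and whether strand was used, is not given in the sources used here. Absolute depth is unknown, and relative depth was read from 2417 genes with all values under 0.1 FPKM.

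Values were analysed as log2(FPKM + 1), and this scale shrinks differences of lowly expressed genes. Genes with at least 1 FPKM in at least 3 libraries were kept. A single limma model (version 3.58.1, R 4.3.3) with 1 mean per group covered the 9 libraries, with trended empirical Bayes variances on 6 residual and 6.05 prior degrees of freedom. Two-sided p-values were adjusted by Benjamini-Hochberg within each of 3 comparisons. The procedure was tested on simulated data. Summaries used Python 3.11.15, pandas 2.3.3, numpy 2.4.6 and matplotlib 3.10.9.

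The 53 members, their 11 role groups and the 5 partner lists were chosen with earlier results of these data known. Library values are given for the members of each role group with the largest and smallest absolute H93 minus DMSO difference. They are also given for every member called higher, for the called members with the smallest adjusted p between H93 and SAHA, and for all MCM, S phase entry and deoxynucleotide genes. Of each partner list the 3 genes with the largest absolute difference are named, except 1 gene that is not reported here. Replicate numbers did not pair libraries, with correlations of deviations no higher than 0.036. Alternatives changed the pseudocount, filter, scaling, moderation, samples in the fit and replicate block, and left out each library in turn. CHTF8 and 5 of the marker genes were not analysed here, and MCM9 was under the filter.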

Additional observations from a re-analysis of the deposited data

How the results depend on the processing

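The counts of members lower ran from 31 to 33 for H93 against DMSO, 26 to 29 for SAHA against DMSO and 20 to 26 for H93 against SAHA over all alternatives, and no called member changed direction. The members higher with H93 against DMSO, 2 as reported, numbered 3 with CCNE1 under quantile normalization, a fixed FPKM sum or a mean FPKM of at least 5, and 2 to 3 with a library left out. The members higher with SAHA against DMSO, 1 as reported, numbered 2 with quantile normalization and 0 with a fixed FPKM sum or only the 6 libraries compared, and 0 to 1 with 1 library left out. With a replicate block the members lower numbered 33, 28 and 23, and those higher 2, 0 and 2, in the same order of comparisons. Among partners higher, the origin firing and fork list (2 with H93 against DMSO) gave 1 at a mean FPKM of at least 5, and the mitotic list gave 0 to 1 with a library left out. With SAHA against DMSO the nucleotide list (1 as reported) gave 2 at a mean FPKM of at least 5, with median-ratio scaling and with quantile normalization, and 1 to 2 with a library left out. The chromatin list (0 as reported) gave 1 with quantile normalization and 0 to 1 with a library left out. For H93 against SAHA the nucleotide list (2 as reported) gave 1 with no filter on low values, and the mitotic list (0 as reported) gave 1 at a mean FPKM of at least 5 and with a fixed FPKM sum. With a library left out, the counts higher for H93 against SAHA were 1 to 4 for the origin firing and fork list, 1 to 2 for the nucleotide list, 3 to 6 for the G1/S list and 0 to 1 for the mitotic list. The causes were not tested. No scaling moved the median of all kept genes by more than 0.1. POLA1 is left out at a mean FPKM of at least 5. Absolute depth is unknown, so no counting error could be given, and 3 libraries per group limit what small differences can show.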
